A study of Mus musculus with 3 samples.

Results

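The genes of oxidative phosphorylation were followed across 3 cultures of mouse ankle synovium cells kept for 24 h on a soft (0.2 kPa), an intermediate (8 kPa) or a stiff (64 kPa) plate. The genes were taken by symbol: all that begin with Nduf, Uqcr or Atp5, or with Cox and a number from 4 to 8, the 4 Sdh subunits, and the mitochondrially encoded mt-Nd, mt-Co, mt-Cytb and mt-Atp genes. This gave 112 of the 56833 genes of the deposited table, of which 99 are nuclear and 13 mitochondrial. A further 15 symbols ending in -ps, which mark pseudogenes, were left out, and the highest of them reached 23.6 normalized counts.

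All cultures came from Efhd1CreER; Ai9 mice, in which the Cre driven by Efhd1 switches on the red reporter tdTomato, and the cells were sorted for tdTomato before they were plated on collagen-coated CytoSoft plates. The genotype, the sort and the collagen coat were shared by all 3 groups, so there was no culture without the reporter or without collagen. Up to 2 synovia were digested in a tube. The labels give neither the number of mice nor their age. Each stiffness had 1 library, so no p-value can be given, and a difference between stiffness levels and one between cultures cannot be told apart. Where 3 values follow each other they stand in the order soft, intermediate, stiff. The intervals given are exact 95% Clopper-Pearson intervals and cover counting error only.

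The libraries held 25487064 (soft), 28081600 (intermediate) and 26474862 (stiff) reads in genes. The labels call the cells telocytes, a stromal cell type of long thin processes. Efhd1, the gene that drives the Cre, had 10.3, 4.71 and 3.08 normalized counts, beside the 3.08, 2.83 and 3.08 that a count of 0 allows. The reporter itself was present, with tdTomato at 818, 1193 and 2668. The platelet-derived growth factor receptor Pdgfra stood at 5884, 6298 and 5118, and Cd34, a surface protein used as a telocyte marker, at 235, 242 and 318. Of the 9 telocyte markers examined 5 had a mean of 50, with 3 lower and 2 higher in the stiff than in the soft library, and the transcription factor Foxl1 had 238, 233 and 186. Kit, Gli1, Tek and Efhd1 had a mean below that. All 12 macrophage markers examined had a mean over 50 and were higher in the stiff than in the soft library, and their summed level was 29397, 36303 and 63203. Of 5 endothelial markers none had a mean of 50, with sums of 44.1, 52.8 and 66.7. Of 8 muscle markers 1 had a mean of 50, the skeletal actin Acta1, with 168, 297 and 622, the sum of the list was 198, 325 and 645, and the myosins Myh2 and Myh4 had no read. All 8 fibroblast markers had a mean over 50, with 6 higher and 2 lower in the stiff than in the soft library, and summed to 240895, 286490 and 344320. The 5 markers of mural cells, which wrap small vessels, summed to 1838, 2676 and 2626. Of the 4 genes in the brown adipocyte list Ucp1 had no read and Cidea had 1 read, in the stiff library. The 2 with a mean over 50 were lower in the stiff library, Adipoq with 1021, 997 and 778 and Plin1 with 919, 974 and 877. With Ucp1 and Cidea nearly absent, these 2 are not given as a sign of brown adipocytes. In bulk RNA fewer cells of a type and less RNA per cell cannot be told apart, and the part of the cells these markers stand for in the values below was not tested.

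Oxidative phosphorylation takes place in the inner mitochondrial membrane. Complexes I and II pass electrons from NADH and succinate to ubiquinone, complex III passes them on to cytochrome c, and complex IV gives them to oxygen. Complexes I, III and IV pump protons, and the ATP synthase, complex V, uses the proton gradient to make ATP. Mitochondrial DNA encodes 13 of the subunits and the nucleus encodes the rest, so assembly needs both genomes. Connective tissue fibroblasts make ATP by this route and by glycolysis.

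The nuclear genes, as counted, were slightly lower on the stiffer plates, in most members, and with a median below 0 in each complex. Of the 99 genes, 89 had a mean of at least 50 normalized counts over the 3 libraries, the minimum used for ratios. Their median log2 ratio was -0.16 for stiff against soft, beside 0.005 over all 11873 genes with that mean. Lower values in the stiff library were found for 76 of the 89, or 85.4%, while 48.9% of all genes were lower. The median member changed by -10.7%, and the members ranged from -26.7% to 23.4%. The counting interval lay below 0 for 66 genes, above 0 for 4, and held 0 for 19. No nuclear member reached a log2 ratio of 0.5 in size in any comparison, against 15.6% of all genes for stiff against soft, 4.6% for intermediate against soft and 8.84% for stiff against intermediate, so the members shared a direction but not a large change. A ratio of -0.25 or less was reached by 19 members, or 21.3%, and by 15.2% of all genes. Part of the difference went with transcript length, as described further on. After subtraction of a trend with length and GC content the median was -0.06 for stiff against soft. Of the 86 genes with a known length 60, or 69.8%, were then below 0, against 50.2% of all genes.

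**Figure D1:**
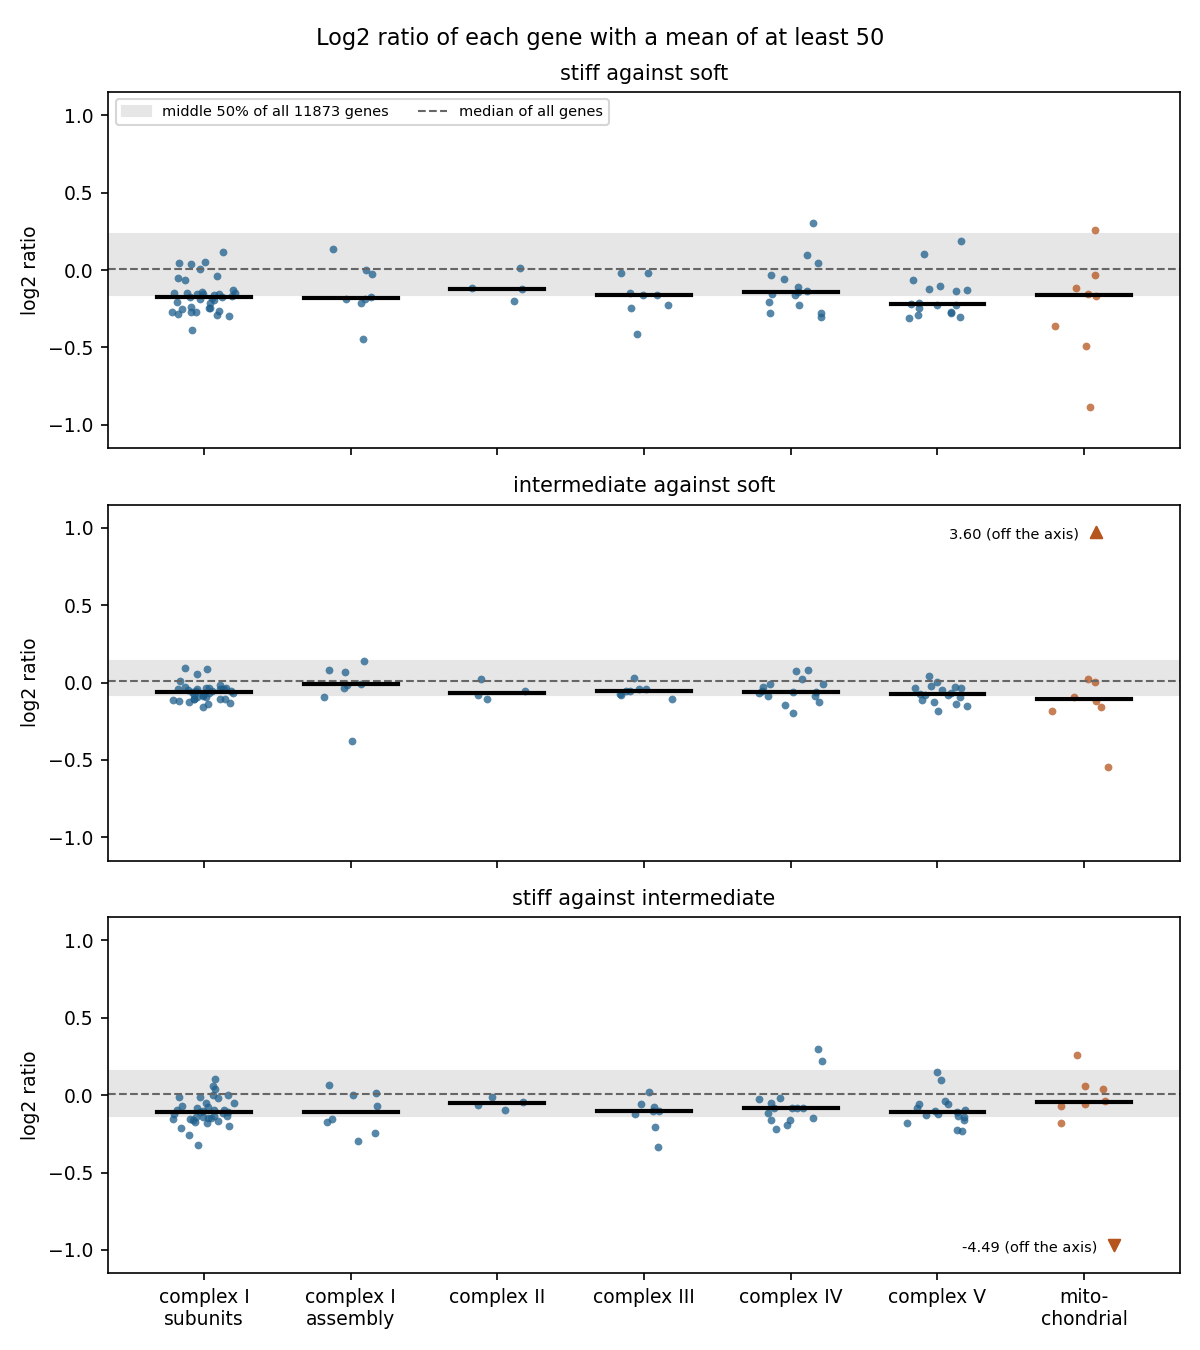
Log2 ratio (pseudocount 1) of each oxidative phosphorylation gene whose mean reached 50, by complex, in 3 panels for the 3 comparisons. Points are genes, black bars are medians, the grey band is the middle 50% of all 11873 genes and the dashed line their median. The triangles are mt-Atp6, whose ratios of 3.60 and -4.49 lie off the axis. The medians of the nuclear complexes lie below 0 in all panels, between -0.22 and -0.01.

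As counted, the members were lower at both stiffness steps, but with the trend of all genes with transcript length and GC content subtracted, as described further on, the median of the lower step was -0.003 and that of the upper step -0.06. For intermediate against soft the median of the 89 genes was -0.06, and 75 genes, or 84.3%, were lower, against 46.5% of all genes, with 1 gene at -0.25 or less, against 4.35%. For stiff against intermediate the median was -0.10, and 78 genes, or 87.6%, were lower, against 48.9% of all genes, with 4 at -0.25 or less, against 12.5%. These comparisons share libraries with each other. Put in order of stiffness, 69 of 89 genes, or 77.5%, were lower at each step, while 25.6% of all genes were. Only 5 members, or 5.62%, were higher at each step, against 30.2% of all genes. The summed normalized counts of the 89 genes were 322856, 310736 and 292225, changes from soft of -3.75% and -9.49%.

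**Figure D2:**
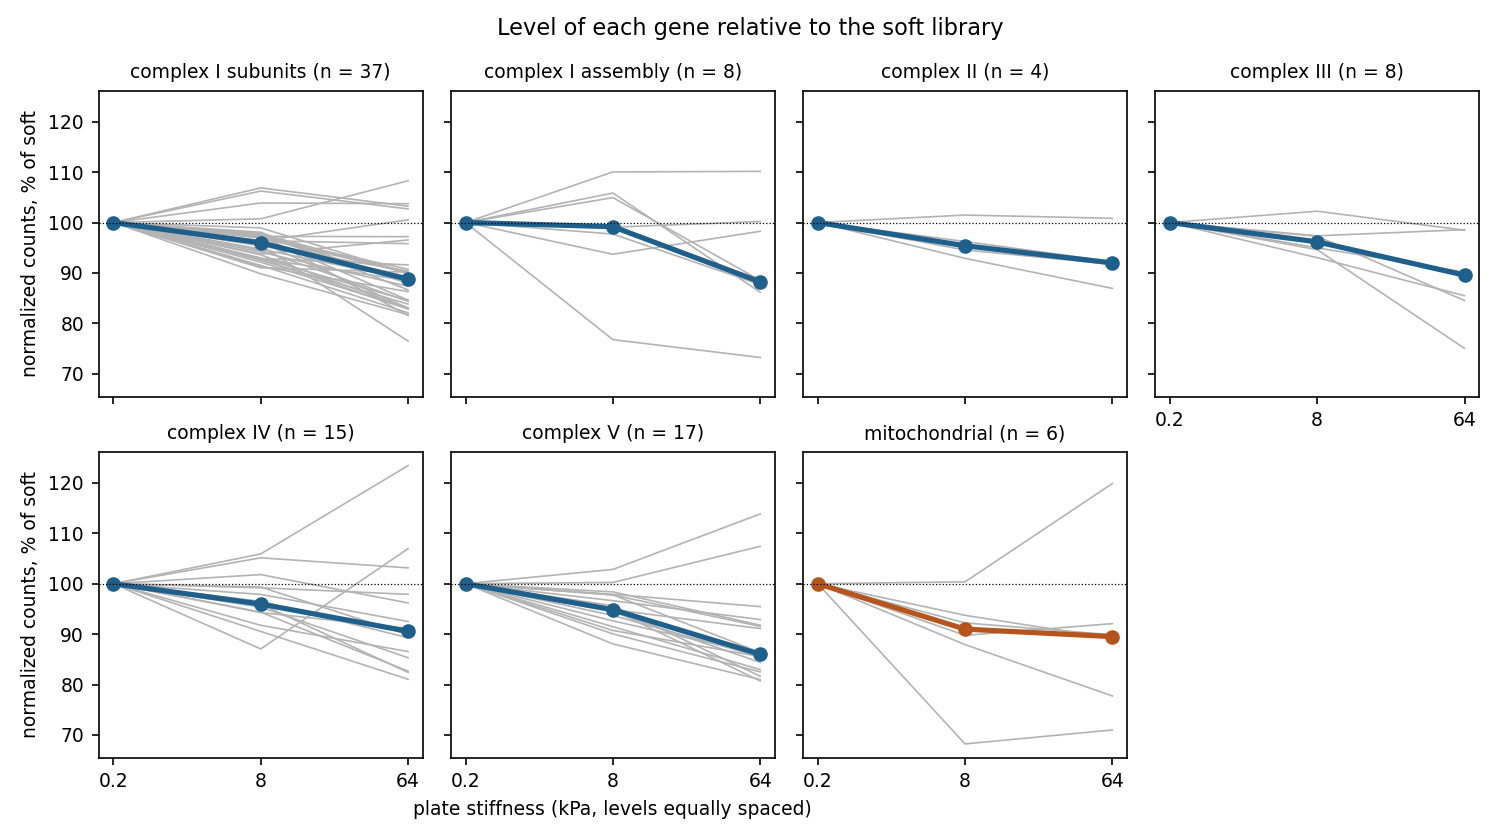
Normalized counts of each gene as a percentage of the soft library, against plate stiffness (0.2, 8 and 64 kPa, drawn equally spaced), by complex. Grey lines are genes and thick lines are medians; each point rests on 1 library. The mitochondrial panel holds the 6 genes with a mean of at least 50 and less than 50% of their 100-base windows repeated elsewhere in the genome. In the complex V panel 15 of 17 genes are lower at each step.

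Complex I is the largest of the complexes, with 41 nuclear subunit genes here and 8 genes for assembly factors. Among its 37 subunit genes with a mean of at least 50 the median log2 ratio of stiff against soft was -0.17, and 32 were lower. The 7 core subunits, which carry flavin and iron-sulfur clusters and form the site of ubiquinone reduction, were lower at each step, all 7 of them. Ndufv1, the subunit that binds NADH, had 3672, 3525 and 3268 normalized counts, a ratio of -0.17 (-0.24 to -0.10). Ndufs1, the largest iron-sulfur subunit, had 3040, 2899 and 2747, a ratio of -0.15 (-0.22 to -0.07). Ndufs8 was lower too, at -0.16 (-0.28 to -0.05). Ndufs7, which holds the last cluster before ubiquinone, hardly differed, with 1191, 1159 and 1158, and its interval held 0 (-0.16 to 0.08).

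The lowest ratio among the complex I subunits belonged to an accessory subunit. Ndufb9 (chr15:58805594-58814819, plus strand, 4 exons), a subunit of the membrane arm, had 1490, 1423 and 1139 normalized counts. Its ratio was -0.39 (-0.50 to -0.27) for stiff against soft. Most of that lay in the upper step, -0.32 from intermediate to stiff and -0.07 from soft to intermediate. Ndufa6 had a like course, with 1538, 1501 and 1254, of which -0.26 lay in the upper step. Ndufa11 was lower by like amounts at each step, with 2225, 1999 and 1818. The 30 other subunits, the core set aside, had a median of -0.17, as did the core. Once the trend with length and GC content was taken off, the core was at -0.11, with 6 of 7 genes below 0, and the other subunits at -0.05, with 22 of 30.

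A few complex I subunits were not lower. Ndufa10, an accessory subunit of the matrix side, had 2287, 2304 and 2477, a ratio of 0.11 (0.03 to 0.20). Ndufs5 and Ndufa12 were highest in the intermediate library, with ratios of intermediate against soft of 0.10 and 0.09. In Ndufs5 61.8% of the 100-base windows of the transcript occur elsewhere in the genome, so its reads may have been split or dropped.

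The assembly factors, which build complex I and are not part of the finished enzyme, differed more among themselves. Their median was -0.18 for stiff against soft, with 6 of 8 lower, but just 3 of 8 were lower at each step. Less the length and GC trend, the median for stiff against soft was -0.07, with 5 of 8 below 0. Ndufaf8 (chr11:119989736-119991531, plus strand, 3 exons), a partner that stabilises the assembly factor Ndufaf5, had the lowest ratio of all 89 nuclear genes. It had 428.5, 329 and 313.8 normalized counts, a ratio of -0.45 (-0.67 to -0.23), and the difference lay between soft and intermediate (-0.38). Ndufaf3, which acts on the ubiquinone module, had 407, 431 and 351, highest in the intermediate library. Ndufaf2, a late assembly factor, showed the same order, with 544, 571 and 482. Ndufaf4, the most abundant of the assembly factors by normalized counts, had 754, 706 and 740, and its interval held 0 (-0.18 to 0.12). Ndufaf6 had 183, 201 and 201, also with 0 inside its interval (-0.16 to 0.44).

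Complex II, succinate dehydrogenase, is encoded by the nucleus alone and also works in the tricarboxylic acid cycle. Its flavoprotein Sdha, which oxidises succinate, had 7134, 7240 and 7194 normalized counts, a ratio of stiff against soft of 0.01 (-0.04 to 0.06). The other 3 subunits were lower. Sdhc, one of the membrane anchors, had 5726, 5319 and 4978, a ratio of -0.20 (-0.26 to -0.15). Sdhb, the iron-sulfur subunit, and Sdhd, the other anchor, were both at -0.12. The enzymes of the cycle and of pyruvate dehydrogenase, which feeds it, gave a median of 0.01 over 16 genes, of which 7 were lower. Less the length and GC trend, that median was -0.02, with 9 of 16 below 0.

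All 8 nuclear complex III genes were lower in the stiff than in the soft library as counted, with a median of -0.16. After subtraction of the length and GC trend the median was -0.07, with 6 of the 8 below 0. Uqcrh (chr4:115923314-115932296, minus strand, 4 exons), the hinge protein at cytochrome c1, was the most abundant of them by normalized counts and the lowest in ratio. It had 6386, 6042 and 4792, a ratio of -0.41 (-0.47 to -0.36), of which -0.33 lay between intermediate and stiff. The structural core proteins differed from each other. Uqcrc1 had 5277, 5395 and 5196 (-0.02, with an interval of -0.08 to 0.03), and Uqcrc2 had 4652, 4476 and 4167 (-0.16, with an interval of -0.22 to -0.10). The Rieske iron-sulfur protein Uqcrfs1, which takes electrons from ubiquinol, stood at -0.15.

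Complex IV, cytochrome c oxidase, has several nuclear subunits that come in isoforms. The 15 genes with a mean of at least 50 had a median of -0.14, and 12 were lower. Once the trend with length and GC content was taken off, the median was -0.03 and 8 genes, or 53.3%, were below 0, close to the 50.2% of all genes. Cox4i1, the common isoform of subunit 4 and the most abundant of the group by normalized counts, had 9456, 9126 and 8443, a ratio of -0.16 (-0.21 to -0.12). Cox7b had 4263, 3859 and 3455 (-0.30) and Cox6c had 3899, 3742 and 3213 (-0.28), the lowest ratios of the complex. Cox7a2l, which helps join complexes III and IV into supercomplexes, had 5236, 4992 and 4467 (-0.23), with 27.3% of its windows found elsewhere in the genome. Cox6a1 was nearly level, at -0.03 (-0.09 to 0.02).

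The pair Ndufa4 and Ndufa4l2 differed in opposite directions. Ndufa4, first assigned to complex I and now counted as a complex IV subunit, had 4427, 4177 and 3659 normalized counts, a ratio of -0.27 (-0.34 to -0.21). Its paralog Ndufa4l2 (chr10:127350818-127353038, plus strand, 4 exons), known as a gene that hypoxia induces, had 811, 859 and 1001. The Ndufa4l2 ratio of 0.30 (0.17 to 0.44) was the highest of the 89 nuclear genes. Counted per kb of transcript, Ndufa4l2 was 9.11% of the pair on soft, 10.1% on intermediate and 13.0% on stiff plates. No 100-base window of either transcript occurs elsewhere in the genome.

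Other minor isoforms made up smaller shares of their pairs. Cox4i2, an isoform known from lung, was 1.86%, 1.84% and 1.88% of the Cox4 pair per kb in the order soft, intermediate, stiff. Cox6b2, known from testis, had 193, 168 and 206 normalized counts and was 3.72%, 3.45% and 4.34% of its pair per kb. Its interval for stiff against soft held 0 (-0.20 to 0.39). The muscle isoforms were low: Cox7a1 had 17.4, 11.3 and 15.4 normalized counts and Cox6a2 had 17.4, 21.7 and 17.4. No read was counted for Cox8b, Cox8c or Cox7b2. These were 5 of the 10 nuclear genes under a mean of 50, the others being Ndufb4c, Ndufs6b, Ndufb11b, Ndufa11b and Cox6c2, and 4 of the 10 had no read in any library.

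**Figure D3:**
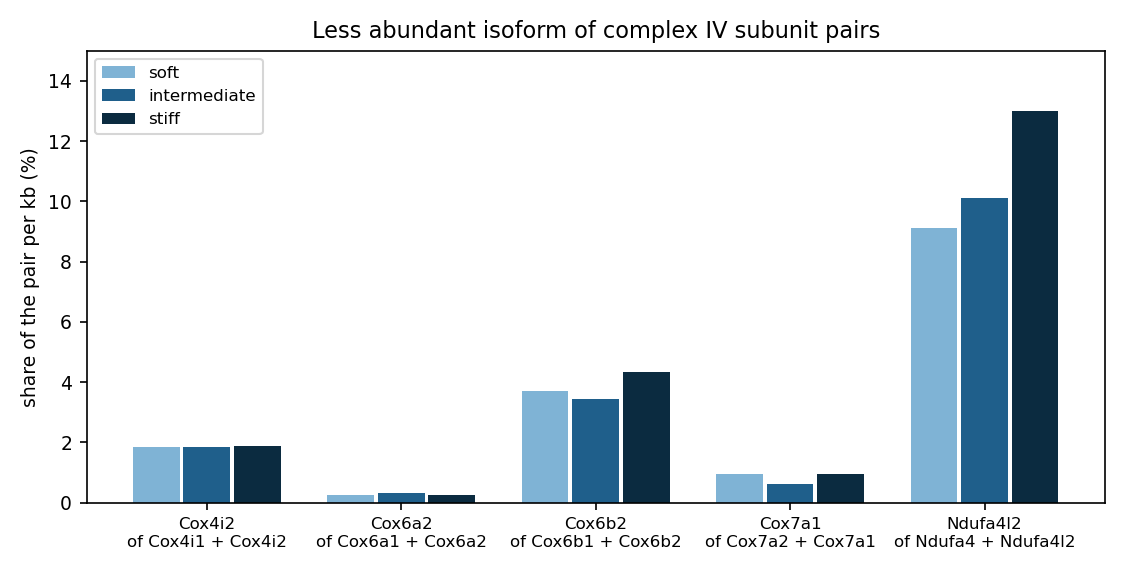
Share of the less abundant isoform in 5 pairs of complex IV subunits, in percent of the pair's normalized counts per kb of transcript, for each stiffness (1 library each, no error bars). Ndufa4l2 goes from 9.11% to 13.0%, while Cox4i2 lies between 1.84% and 1.88%.

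Complex V had a median of -0.22 for stiff against soft, the lowest of the complexes as counted, and 15 of its 17 genes were lower at each step. That order did not hold once the trend with length and GC content was taken off, where complex II stood at -0.083, complex III at -0.073 and complex V at -0.071. These values lie close together, and that of complex V then covers 14 of its 17 genes. Atp5mpl, Atp5md and Atp5o have no length and drop out, so the set of genes changed as well. Atp5b, the catalytic beta subunit (chr10:127919132-127926261, plus strand, 10 exons), had 32077, 31404 and 30619 normalized counts, a ratio of -0.07 (-0.09 to -0.04). Atp5a1, the alpha subunit, had 26588, 25694 and 24697, a ratio of -0.11 (-0.13 to -0.08). The gamma subunit Atp5c1, the shaft that turns inside the head, was at -0.23. Small subunits had the lowest ratios of the complex. Atp5e, the epsilon subunit, had 3527, 3342 and 2847 (-0.31, with an interval of -0.38 to -0.24). Atp5mpl and Atp5md, small proteins of the membrane part, stood at -0.30 and -0.28.

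A pair of complex V genes went the other way at each step. Atp5d, the delta subunit of the central stalk (chr10:79974466-79981652, plus strand, 4 exons), had 5795, 5960 and 6597 normalized counts, a ratio of 0.19 (0.14 to 0.24), so that within the stalk Atp5d was higher and Atp5c1 and Atp5e were lower in the stiff library. Atp5g1 had 2650, 2657 and 2847, a ratio of 0.10 (0.03 to 0.18). It is one of 3 genes for the same mature subunit c of the rotor ring, and the other two, Atp5g2 and Atp5g3, were at -0.13 each. The Atp5g1 and Atp5g2 values are uncertain, since 65.3% and 87.5% of their 100-base windows occur elsewhere in the genome. Atpif1, the protein that inhibits ATP hydrolysis by complex V and no member of the group, had 2743, 2847 and 2664 (-0.04).

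Transcript levels within the complexes can be compared per kb of transcript. The median over 86 nuclear genes with a known length was 2428 normalized counts per kb, and genes ran from 64.7 for Ndufb2 to 16286 for Atp5b. Each level rests on the length of 1 annotated canonical transcript, 4389 bases for Ndufb2. Which transcripts the cells made was not tested, and a shorter one would raise the level per kb. By complex the median level was 1861 for complex I subunits, 2002 for complex II, 2663 for complex III, 5104 for complex IV and 4418 for complex V. The complex I assembly factors were far below, at 229. The level of a member and its ratio were not closely related: across the 86 genes Pearson's r between log2 mean and log2 ratio of stiff against soft was -0.11 and Spearman's rho -0.03, as a description over genes that share the same libraries.

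Length is a property of these genes that the selection did not use and that moved with the result. The 86 matched nuclear genes had a median transcript length of 1090 bases, against 3474 over all genes. In these libraries short transcripts as a whole had lower ratios: the shortest of 20 length classes, up to 1006 bases and 587 genes, had a median of -0.14 for stiff against soft, and the longest class 0.22. Of the 86 members 41 fell in that shortest class. A trend with length and GC content, fitted across all genes, gave the members a median of -0.11. After its subtraction the median was -0.06 for stiff against soft, and 60 of 86 genes, or 69.8%, were below 0, against 50.2% of all genes. For intermediate against soft it was -0.003, with 48 of 86, or 55.8%, below 0, against 50.5% of all genes, so little of that step was left. For stiff against intermediate it was -0.06, with 62 of 86, or 72.1%, below 0, against 50% of all genes. Within the members the ratio of stiff against soft went little with length, with Pearson's r of 0.12 and Spearman's rho of 0.15 over the 86 genes.

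**Figure D4:**
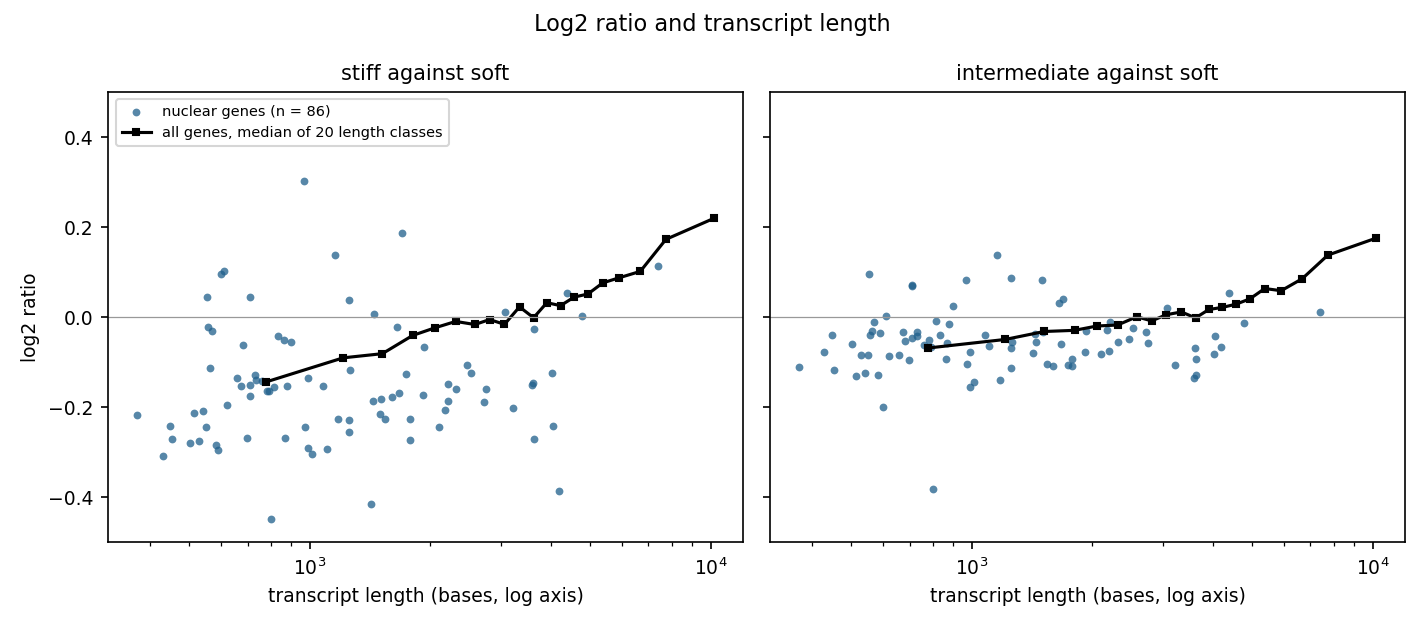
Log2 ratio of the 86 nuclear genes with a known transcript length (points) against length in bases (log axis), and the median of all genes in 20 classes of length (squares), for stiff against soft and intermediate against soft. The line of all genes goes from -0.14 to 0.22 in the left panel, and many short members lie below it.

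The trend mattered in different degree for single genes. With it subtracted, stiff against soft, Ndufb9 stood at -0.35, Ndufaf8 at -0.30 and Uqcrh at -0.25. Ndufa4l2 stood at 0.37 and Atp5d at 0.21, so these 2 remained higher. Ndufa10, the longest transcript of the set at 7389 bases, went from 0.11 to -0.28, and its direction depends on the correction. Sdha stood at 0.04 and Atp5b at 0.01.

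The promoters of the nuclear genes were searched for letters bound by factors known to drive respiratory genes: GCATGCG of NRF1, CCGGAAG of the ETS family to which GABP (NRF2) belongs, and ATGGCGG of YY1. Each was read on both strands, separately, in the 300 bases from 250 before to 50 after the annotated start site (GRCm39), and matches could overlap. The NRF1 letters were in 11 of 86 members, 12.8%, against 4.69% of all 21770 promoters and 6.41% of the 11364 promoters of genes whose mean reached 50. The ETS letters were in 15 members, 17.4%, against 10.3% and 16.1%. The YY1 letters were in 7 members, 8.14%, against 3.97% and 5.86%. The margin over expressed genes was widest for the NRF1 letters and small for the ETS letters. Members with and without the ETS letters had medians of -0.18 and -0.15 for stiff against soft, those with and without the NRF1 letters -0.17 and -0.16, and those with and without the YY1 letters -0.15 and -0.16.

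Among the members with the lowest ratios, Ndufaf8, Uqcrh, Ndufb9 and Atp5e carry the ETS letters in that window, as was seen once their ratios were known. The next lowest with a promoter in the table, Cox7b, Ndufa6, Atp5j2, Ndufa11 and Ndufa2, do not. Shown are 60 bases before and 30 from the start site for the first 3, with the ETS letters in capitals, and for Atp5k, a small complex V subunit of the membrane part, with the NRF1 letters in capitals, where a match on each strand overlaps the other. All are GRCm39 and read along the gene's strand: Ndufaf8 chr11:119989676-119989765 plus, Uqcrh chr4:115932267-115932356 minus, Ndufb9 chr15:58805534-58805623 plus, and Atp5k chr5:108582285-108582374 minus.
Ndufaf8: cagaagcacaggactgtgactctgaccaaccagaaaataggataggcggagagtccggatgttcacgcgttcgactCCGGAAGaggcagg
Uqcrh: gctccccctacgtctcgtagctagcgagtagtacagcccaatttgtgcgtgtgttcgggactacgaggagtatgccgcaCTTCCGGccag
Ndufb9: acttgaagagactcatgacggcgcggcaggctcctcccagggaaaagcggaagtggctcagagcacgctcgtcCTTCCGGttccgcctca
Atp5k: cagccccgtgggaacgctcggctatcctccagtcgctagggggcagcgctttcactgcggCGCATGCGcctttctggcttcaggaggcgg
In the 4 stretches shown the letters in capitals begin within 20 bases of the start site. Ndufb9 has a second match of the ETS letters at base 41, outside the stretch. A match describes the sequence and does not show that a factor bound there. Atp5k had 1951, 1807 and 1678 normalized counts, a ratio of -0.22 (-0.31 to -0.12), and 0.003 once the trend was taken off.

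The transcripts of the factors themselves did not move one way. Among 10 regulators of respiratory genes with a mean of at least 50 the median ratio of stiff against soft was -0.003, and 5 were lower. Gabpb2 and Gabpa, subunits of GABP, were the lowest at -0.35 and -0.25. The coactivator Pprc1 was the highest, at 0.47, and Nrf1 was at 0.19. Once the trend with length and GC content was taken off, the median was -0.04, with 6 of 10 below 0, and Pprc1 was at 0.21, Nrf1 at 0.20, Gabpb2 at -0.46 and Gabpa at -0.15. Ppargc1a, the coactivator PGC-1alpha, was barely present, with 10.3, 8.48 and 10.3 normalized counts. Other genes needed for the complexes, such as further assembly factors and ubiquinone synthesis, gave a median of -0.08 over 55 genes. Of these 36, or 65.5%, were lower, against 48.9% of all genes. Sdhaf3, an assembly factor of complex II, was the lowest of these at -0.46, followed by Pet100 for complex IV at -0.35, while Coq5 for ubiquinone synthesis was at 0.38 and Cox18 at 0.35. Mitochondrial ribosomal proteins, which translate the mitochondrial messages, had a median of -0.09 over 77 genes, with 58, or 75.3%, lower. Once the trend with length and GC content was taken off, that list was at -0.02, with 46 of 77, or 59.7%, below 0. The other genes needed for the complexes were then at -0.05, with 31 of 55, or 56.4%. Of all genes 50.2% were below 0 after that subtraction.

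The 13 mitochondrial genes lie on a circular chromosome and are transcribed as long precursors that are cut into messages. Together they took 1.19% (1.19 to 1.20), 1.08% (1.07 to 1.08) and 1.04% (1.03 to 1.04) of the reads. The 99 nuclear genes took 1.24%, 1.17% and 1.08%. Thus 0.965, 0.918 and 0.963 mitochondrial reads were counted for each nuclear read, lowest in the intermediate library and nearly equal in the other two. Of the 13 genes, 8 had a mean of at least 50, and their summed counts changed by -8.46% from soft to intermediate and by -9.69% from soft to stiff.

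Part of the mitochondrial genome has a nearly exact copy in the nucleus. The stretch chrM:6394-11042 is found on the minus strand of chr1:24650616-24655265 (GRCm39) with 99.98% identity over 4649 bases. It holds 1 insertion or deletion and 1 substitution, T9461C, where the mitochondrial base comes first and the position is counted on the mitochondrial chromosome. The copy holds the whole of mt-Co2, mt-Atp8, mt-Atp6, mt-Co3, mt-Nd3 and mt-Nd4l, 63.6% of mt-Nd4 and 31.0% of mt-Co1. A read from such a stretch, unless it covers one of these differences, fits both places, and whether such reads were dropped or assigned was not given in the sources used here. Shown is mt-Atp8 as the copied stretch in small (chrM:7766-7969, plus strand, all 204 bases the same in the copy), with the 43 bases it shares with the start of mt-Atp6 in capitals, and then 60 bases around the start of mt-Nd3 (chrM:9432-9491) with the substituted base in capitals, first as on the mitochondrial chromosome and then as in the copy.
mt-Atp8: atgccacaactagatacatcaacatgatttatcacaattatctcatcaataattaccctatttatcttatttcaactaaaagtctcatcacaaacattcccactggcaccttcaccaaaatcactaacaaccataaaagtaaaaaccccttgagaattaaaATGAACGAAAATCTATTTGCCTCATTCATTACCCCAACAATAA
mt-Nd3: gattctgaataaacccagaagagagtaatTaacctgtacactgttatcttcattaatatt
copy on chr1: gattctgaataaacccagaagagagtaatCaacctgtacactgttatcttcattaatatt

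Levels per kb were lower in the 6 genes wholly in the copied stretch than in the other genes, mt-Nd6 apart. Per kb, mt-Co1 had a mean of 77130 normalized counts, mt-Nd1 67603, mt-Cytb 40011, mt-Nd2 24685, mt-Nd5 12879 and mt-Nd4 9874. The 6 genes that lie wholly in the copied stretch had 418 (mt-Atp6), 107.5 (mt-Nd3), 52.6 (mt-Co3), 28.1 (mt-Atp8), 18.2 (mt-Co2) and 3.45 (mt-Nd4l). The mt-Atp6 mean rests on the intermediate library, at 1114 per kb, with 90.3 in the soft and 48.2 in the stiff library. The subunits 1, 2 and 3 of cytochrome oxidase, whose genes lie on the same strand, stood far apart in these values, at 77130, 18.2 and 52.6. The gene models that the annotation places in the chr1 copy were low too, and the highest, Gm28437, had 109, 81.1 and 75.9 normalized counts. How far reads that fit both places bear on these 6 values was not tested, and they are given as counted, not as mitochondrial levels. By contrast mt-Nd6, which is encoded on the other strand and has no exact copy, was low at 146.5 per kb.

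**Figure D5:**
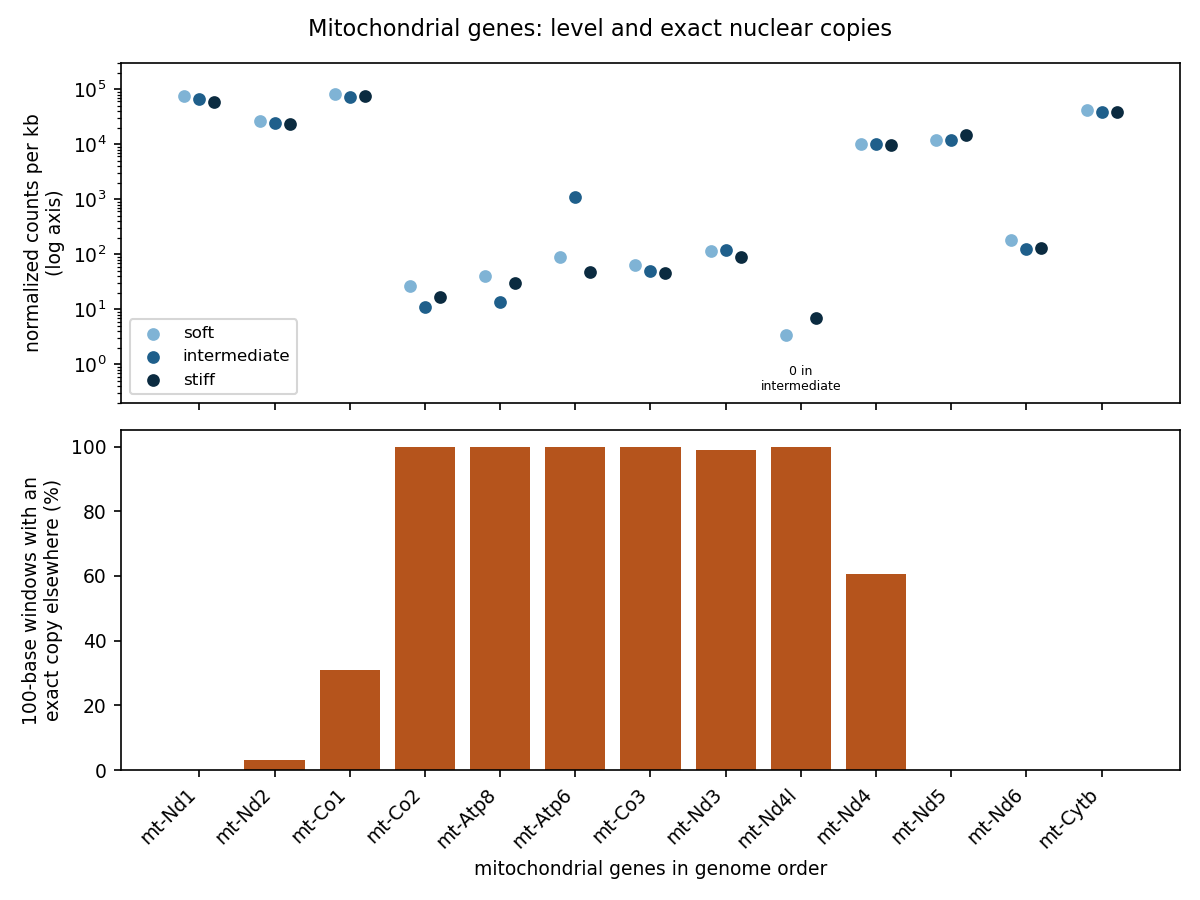
Upper panel: normalized counts per kb (log axis) of the 13 mitochondrial genes in the order of the genome, with a dot for each library; mt-Nd4l had no read in the intermediate library and has no dot there. Lower panel: share of each gene's 100-base windows that occur exactly elsewhere in GRCm39. The 6 genes at 98.8% or 100% are the 6 in the copied stretch.

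For the 6 genes with a mean of at least 50 and less than 50% of their windows repeated, the summed counts changed by -9.15% from soft to intermediate and by -10.0% from soft to stiff. The members did not move alike. The complex I subunit gene mt-Nd1 (chrM:2751-3707) had 73059, 64233 and 56797 normalized counts, a ratio of stiff against soft of -0.36 (-0.38 to -0.35). The cytochrome b gene mt-Cytb had 48677, 44897 and 43744, a ratio of -0.15. The complex I gene mt-Nd2 had 27174, 25471 and 24225, a ratio of -0.17. These 3 were lower at each step as counted. Once the trend with length and GC content was taken off, mt-Nd1 was at -0.12 for stiff against soft, mt-Nd2 at 0.08 and mt-Cytb at 0.02, so the direction of the last 2 depends on that correction. The median of the 6 genes was then 0.04, with 2 below 0.

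The catalytic subunit of complex IV took another course. Its gene mt-Co1 had 126844, 113848 and 116804, lowest in the intermediate library, and a ratio of stiff against soft of -0.12 (-0.13 to -0.11), or 0.06 once the trend was taken off, so its direction too depends on the correction. The complex I gene mt-Nd5 (chrM:11742-13565) was the exception in direction as counted, with 22007, 22087 and 26379. Its ratio was 0.26 (0.24 to 0.29), or 0.39 without the trend, nearly all of it between intermediate and stiff. On the other strand mt-Nd6 had 95.3, 65.0 and 67.7, a ratio of -0.49 (-0.97 to -0.02), from counts low enough that the interval nearly reached 0, and -0.08 without the trend. The gene mt-Nd4, with 60.8% of its windows repeated, had 13650, 13844 and 13323 (-0.03, or 0.10 without the trend).

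One value stood far from its neighbours. The ATP synthase gene mt-Atp6 (chrM:7927-8607) had 61.5, 759 and 32.8 normalized counts, from 60, 805 and 32 reads. The ratio of intermediate against soft was 3.60 and that of stiff against intermediate -4.49. Genes on either side did not follow: mt-Atp8 had 8.20, 2.83 and 6.15, and mt-Co3 49.2, 38.7 and 35.9. All of the 100-base windows of mt-Atp6 are repeated in the chr1 copy. The pseudogene of mt-Atp6 that RefSeq names on chromosome 1, Gm10925, had 81.0, 54.7 and 61.5, and was lowest in the intermediate library. The source of the high intermediate value was not tested. Of the other genes in the copied stretch, mt-Co2 had 18.5, 7.54 and 11.3, mt-Nd3 had 39.98, 41.5 and 30.8, and mt-Nd4l had 1.03, 0 and 2.05, where the 0 allows up to 2.83.

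The mitochondrial ribosomal RNAs, made from the same strand as most of the messages but not members of the group, were lower in the stiff library too. The smaller, mt-Rnr1, had 7398, 6605 and 5183 normalized counts (-0.51 for stiff against soft), and mt-Rnr2 had 16296, 14096 and 11653 (-0.48). Both were lower at each step, though libraries selected for poly(A) capture ribosomal RNA only in part. Factors that copy and transcribe mitochondrial DNA had a median of -0.06 over 21 genes, of which 12, or 57.1%, were lower, against 48.9% of all genes. That median was 0.04 once the trend was taken off, with 10, or 47.6%, below 0, against 50.2%. The polymerase subunit Polg2 was at -0.63 from 94.3, 73.5 and 60.5 normalized counts, and the elongation factor Tefm at -0.36, while the RNA polymerase Polrmt was at 0.42 and Elac2, which trims mitochondrial tRNAs, at 0.34. Without the trend Polg2 was at -0.59, Tefm at -0.25, Polrmt at 0.11 and Elac2 at 0.26.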

How the data were processed

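RNA from tdTomato-sorted synovium cells was sequenced as stranded poly(A) libraries, per the labels' protocols. Each deposited signal value is a gene's count over its library's size factor. The submitters' processing notes name bcl2fastq 2.20.0, STAR 2.7.9a, featureCounts, Subread 2.0.1, DESeq2 1.34.0 and GRCm39, with no role or order. The annotation used, the handling of reads that fit several places and the use of strand in counting were not given in the sources used here. The deposited files held the same table. In each column 100% of values were whole multiples of 1 read (worth 1.03 on soft, 0.943 on intermediate and 1.03 on stiff plates) within 0.01, so reads were recovered. A count of 0 allows 3 reads.

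With 1 library per group no test was possible, a count-based one included. Log2 ratios used a pseudocount of 1, so they understate changes of low genes, and a minimum mean of 50. Symbols were matched to GENCODE vM39 (GRCm39), 96 members directly and 13 through older symbols. Atp5mpl, Atp5o and Atp5md remained unmatched and have no length. Transcript lengths are those of the annotated canonical transcripts. The trend was a local linear fit on log2 length and GC over the 300 nearest of the genes with a mean of at least 10. Windows of 100 bases were searched exactly on both strands of GRCm39.

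Named genes were all mitochondrial genes, core subunits, isoform groups, the most abundant gene of each complex, and the 5 highest and 5 lowest nuclear ratios per comparison. A gene that falls under this rule is not reported here. Outside the members the 2 highest and lowest of each list could be named. Others (Cox6c, Atp5c1, Atp5k, Atp5j2, Ndufa2, Gm10925, Gm28437 and the ribosomal RNAs) were chosen after their values were seen. Members, lists and motif letters were chosen with earlier results of these data known. The calculation was checked on simulated data with counting noise alone, which hold no spread between cultures. Python 3.11.15, numpy 2.4.6, pandas 2.3.3 and scipy 1.17.1 were used.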

Additional observations from a re-analysis of the deposited data

How the results depend on the processing

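No paired analysis was possible because each group has 1 library, so none could be left out either. The nuclear median stayed below 0 under all 12 settings in each comparison, from -0.22 to -0.06 for stiff against soft, -0.09 to -0.003 for intermediate against soft and -0.14 to -0.06 for stiff against intermediate. The 12 settings include the one used above. The -0.003, with the length and GC trend subtracted, lies beside -0.0015 over all genes, so its sign tells little. In the order of all nuclear genes, complex I subunits and complex V, stiff against soft was -0.22, -0.23 and -0.27 when scaled by total reads, -0.22, -0.23 and -0.28 by total reads without mitochondrial genes, and -0.22, -0.23 and -0.28 by the upper quartile, with 1 gene past 0.5 in each. Stiff against intermediate was -0.14, -0.15 and -0.14 by total reads, with or without mitochondrial genes, and -0.12 for the nuclear genes by the upper quartile. Intermediate against soft was -0.078 for the nuclear genes without mitochondrial reads in the total. By the upper quartile it was -0.093 for the nuclear genes, -0.095 for complex I, -0.095 for complex IV and -0.11 for complex V. These scalings put the median of all genes at -0.05 for stiff against soft. With the length and GC trend subtracted, nuclear genes, complex I, complex IV and complex V had -0.059, -0.063, -0.026 and -0.071 for stiff against soft and -0.0033, -0.021, 0.013 and -0.0022 for intermediate against soft. For stiff against intermediate nuclear genes and complex I had -0.065 and -0.066. For the 8 mitochondrial genes with a mean of at least 50, mt-Atp6 included, the median for stiff against soft was -0.16. It was below 0 under 11 of 12 settings and ranged from -0.36 to 0.04. The -0.36 came with no minimum mean or a minimum of 10. Those settings take in more genes of the copied stretch, whose values are not given as mitochondrial levels. The 0.04 came with that trend subtracted. Without a minimum mean, 2, 4 and 3 nuclear genes passed 0.5 in the 3 comparisons, in that order, against 0 in each with the minimum of 50. A minimum of 10 gave 1 for intermediate against soft. The share of all genes was not computed for these counts or for those under other scalings. A threshold of 0.25 gave 20, 1 and 5 of the 89 nuclear genes. Of all 11873 genes, 2816 were at 0.25 or more and 1805 at -0.25 or less for stiff against soft. These counts were 1657 and 517 for intermediate against soft, and 1929 and 1480 for stiff against intermediate. Of protein-coding reads the mitochondrial genes took 1.218%, 1.10% and 1.054%, from soft to stiff. Members with no repeated 100-base window, a setting added after seeing the data, gave nuclear medians of -0.16, -0.06 and -0.10. Depth limits the low isoforms and mt-Nd6, not the abundant members.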
